A study of Mus musculus with 12 samples.

Results

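The genes described here are 38 interferon response genes of the mouse, a list of 24 genes induced mainly by type I interferon and 14 genes induced mainly by interferon gamma. They were chosen by name, and each was represented by its brightest probe. Of the 38 genes, 36 were matched to a probe through the transcript accession the array gives, and Mx1 and Mx2 were not matched and are not analysed here. All 36 matched genes, 22 type I and 14 gamma-type, were well above background on all 12 arrays and entered the test, among 15586 named genes and 26107 features in all.

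Interferons are cytokines, and cells release those of type I on sensing viral or bacterial nucleic acids. Type I interferons signal through a complex that holds Stat2 and Irf9, which binds an interferon-stimulated response element (ISRE) and induces antiviral effectors, whereas interferon gamma, made by T and NK cells, acts through a gamma-activated site (GAS) and induces antigen processing genes, guanylate-binding proteins and chemokines. In the intestine, both programmes are known to run at a tonic level in the epithelium and in the resident immune cells, in part in response to the microbiota.

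RNA of whole duodenum was measured on single-colour (Cy3) arrays in 12 male mice, 3 in each of 4 groups. Wild-type mice and IAP-KO (Akp3-/-) mice, which lack an alkaline phosphatase of the duodenal brush border, received by mouth either vehicle alone or IIAEK, a peptide of 5 amino acids that the submitters describe as lowering cholesterol. The dose was 600 mg per kg of body weight once a day, all groups received sodium carboxymethylcellulose at 5 g/L as the vehicle, and the mice, all aged 7 weeks when dosing began, were fasted for 8 h before the duodenum was taken. Dosing lasted 14 days per the sample titles and the design text, although the source labels of the IIAEK mice give longer times. The labels give neither the strain nor the way the Akp3 allele was made, and they name no litters or cages.

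Levels are log2 processed signal minus the array's 75th percentile, so that 0 is the 75th percentile of that array and a difference of 1 is a doubling of signal. Per array, 55.9% to 64.0% of probes were called well above background, and none of the 36 genes' probes was saturated. Akp3 stood between 1.05 and 2.72 on the 6 wild-type arrays and between -4.90 and -3.80 on the 6 knockout arrays; the genotypes did not overlap. The arrays lay on 2 slides, with 7 arrays on slide 1 and 5 on slide 2, and every group had arrays on both. Some arrays stood apart in markers of neighbouring tissue. The mean level of the smooth muscle markers was 4.12 on knockout IIAEK array 3 and 2.23 to 3.35 on the others. The mean level of the pancreatic markers was 2.30 on wild-type vehicle array 1 and 7.27 to 9.27 on the others. Markers of stomach and Brunner's gland averaged 3.79 to 5.69 on 6 arrays, among them all 3 wild-type vehicle arrays, and -3.03 to -1.42 on the other 6. The enterocyte markers averaged 7.05 to 7.73 on all arrays.

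Promoter sequence was looked up for the matched genes in RefSeq's table for GRCm38.p6, which holds 29 of the 36. The 250 bases before each start were searched on both strands for GAAA, any 2 bases and GAAA again (TTTC, any 2 bases and TTTC on the other strand), a core of the ISRE, and for the palindrome TTCNNNGAA, the GAS. The ISRE letters were found for 8 of 17 type I genes and 6 of 12 gamma-type genes, against 3.46% of all genes in the table. The GAS letters were found for 4 of 17 type I and 5 of 12 gamma-type genes, against 8.13% of all genes. A match is a run of letters and was not tested as a binding site. Among genes with a match whose values on every array follow, 6 were picked by the smallest p in each class. That p came from the limma comparison of knockout with wild type averaged over treatments. The stretches that hold the matches of these 6 genes are shown. Each is written 5′ to 3′ on the gene's strand, with the matched letters in capitals.

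Oas1a, chr5:120907526-120907643, minus strand: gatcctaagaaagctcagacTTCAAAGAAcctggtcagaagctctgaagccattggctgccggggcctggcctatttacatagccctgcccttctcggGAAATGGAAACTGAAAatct
Isg15, chr4:156200855-156200916, minus strand: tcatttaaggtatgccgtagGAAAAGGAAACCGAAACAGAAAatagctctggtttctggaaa
Ifit2, chr19:34550444-34550481, plus strand: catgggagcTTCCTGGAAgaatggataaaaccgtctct
Psmb8, chr17:34198078-34198126, plus strand: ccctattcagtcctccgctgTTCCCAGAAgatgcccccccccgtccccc
Cxcl10, chr5:92349073-92349122, minus strand: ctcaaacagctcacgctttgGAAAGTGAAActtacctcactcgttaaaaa
Irf1, chr11:53769904-53769952, plus strand: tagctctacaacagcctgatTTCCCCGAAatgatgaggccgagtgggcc

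The Oas1a stretch holds a GAS match followed by 2 overlapping ISRE matches that end 4 bases before the start, and the Isg15 stretch holds 3 overlapping ISRE matches that end 56 bases before it. Ifit2, Psmb8 and Irf1 each hold a GAS match, and Cxcl10 an ISRE match. For Cxcl9, Ifi44, Irf7 and Psmb9, whose values also follow, neither set of letters was found in the window.

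Across the 36 genes the wild-type vehicle group had the lowest of the 4 group means for 28 genes and the highest for none. Among all features, that group was lowest for 35.3% and highest for 24.5%. The split by class was 15 of 22 type I genes and 13 of 14 gamma-type genes with their lowest mean in that group. The highest mean lay in the knockout vehicle group for 15 genes, in the knockout IIAEK group for 13 and in the wild-type IIAEK group for 8. Among all features these shares were 27.5%, 20.2% and 27.9%. The genes varied between arrays about as much as other features did, with a median range over the 12 arrays of 0.98 for the type I genes, 1.0 for the gamma-type genes and 0.98 for all features. Stat2, a signal transducer of the type I pathway, had the narrowest range, 0.42, and Zbp1, a sensor of nucleic acids in the Z conformation, the widest, 1.98.

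**Figure D1:**
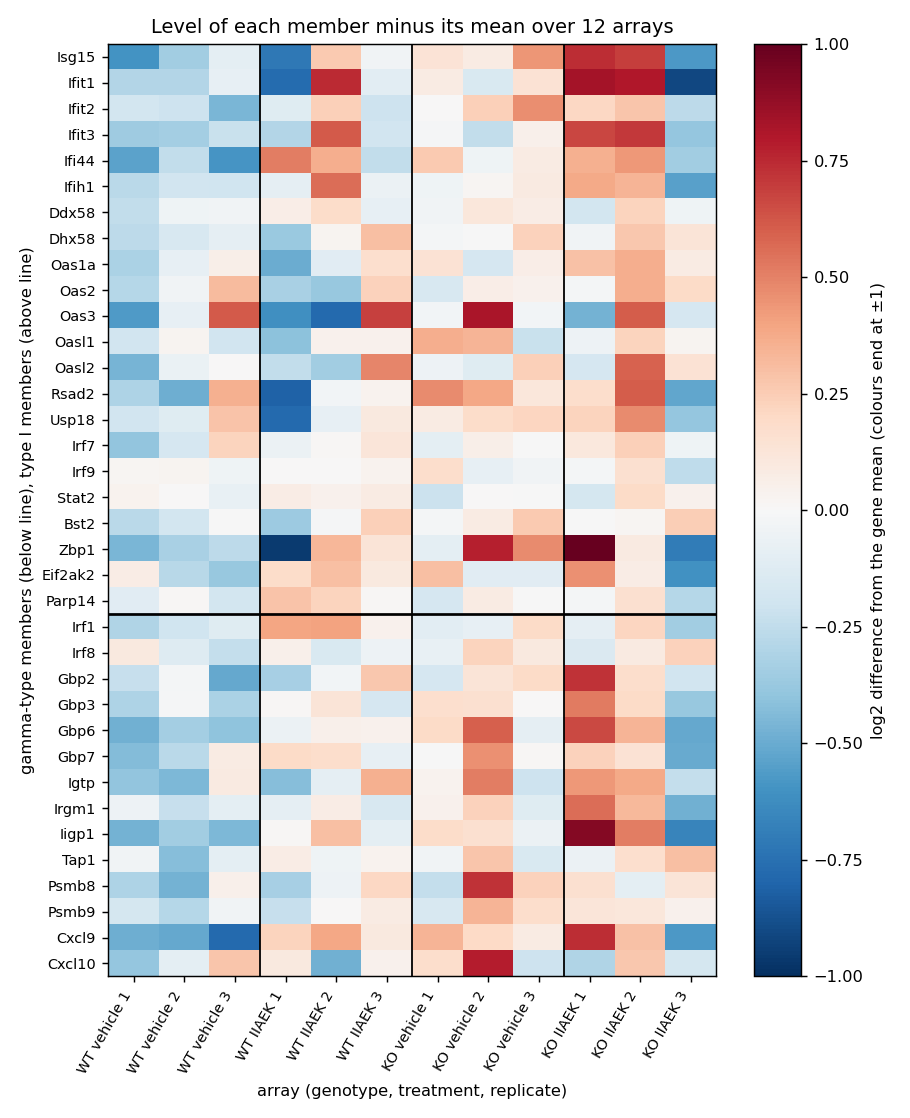
Level of each of the 36 genes on each of the 12 arrays minus the gene's mean over the arrays (log2, colours end at ±1), with type I genes above the black line and gamma-type genes below it. The wild-type vehicle columns are mostly blue, and knockout IIAEK arrays 1 and 2 are mostly red while array 3 of that group is mostly blue.

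The same could be read array by array from the mean deviation of each class from its genes' own means. For the type I genes this was -0.28, -0.16 and -0.05 on wild-type vehicle arrays 1 to 3, -0.29, 0.10 and 0.08 on the wild-type IIAEK arrays, 0.05, 0.11 and 0.12 on the knockout vehicle arrays, and 0.20, 0.36 and -0.23 on the knockout IIAEK arrays. For the gamma-type genes it was -0.28, -0.27 and -0.18, then -0.03, 0.05 and 0.04, then 0.02, 0.34 and 0.01, and finally 0.32, 0.22 and -0.24, in the same order. All 3 wild-type vehicle arrays were thus below the knockout vehicle arrays in both classes, and the knockout IIAEK group held both the highest type I array and, in array 3, one of the 3 lowest. On knockout IIAEK array 2 all 22 type I genes lay above their own means, against 55.9% of all features. Of these, 9 had their highest value there, against 3.48% of all features. On knockout IIAEK array 1 the gamma-type genes led instead, with 6 of 14 at their highest value (15.5% of all features), and knockout vehicle array 2 held the highest value of another 5 (9.31%). Knockout IIAEK array 3, the array with the high smooth muscle markers, held the lowest value of 6 of 22 type I and 6 of 14 gamma-type genes. It also held the lowest value of 25.0% of all features, which is near the type I share. Wild-type IIAEK array 1 held the lowest value of 8 of 22 type I genes (6.43% of all features).

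**Figure D2:**
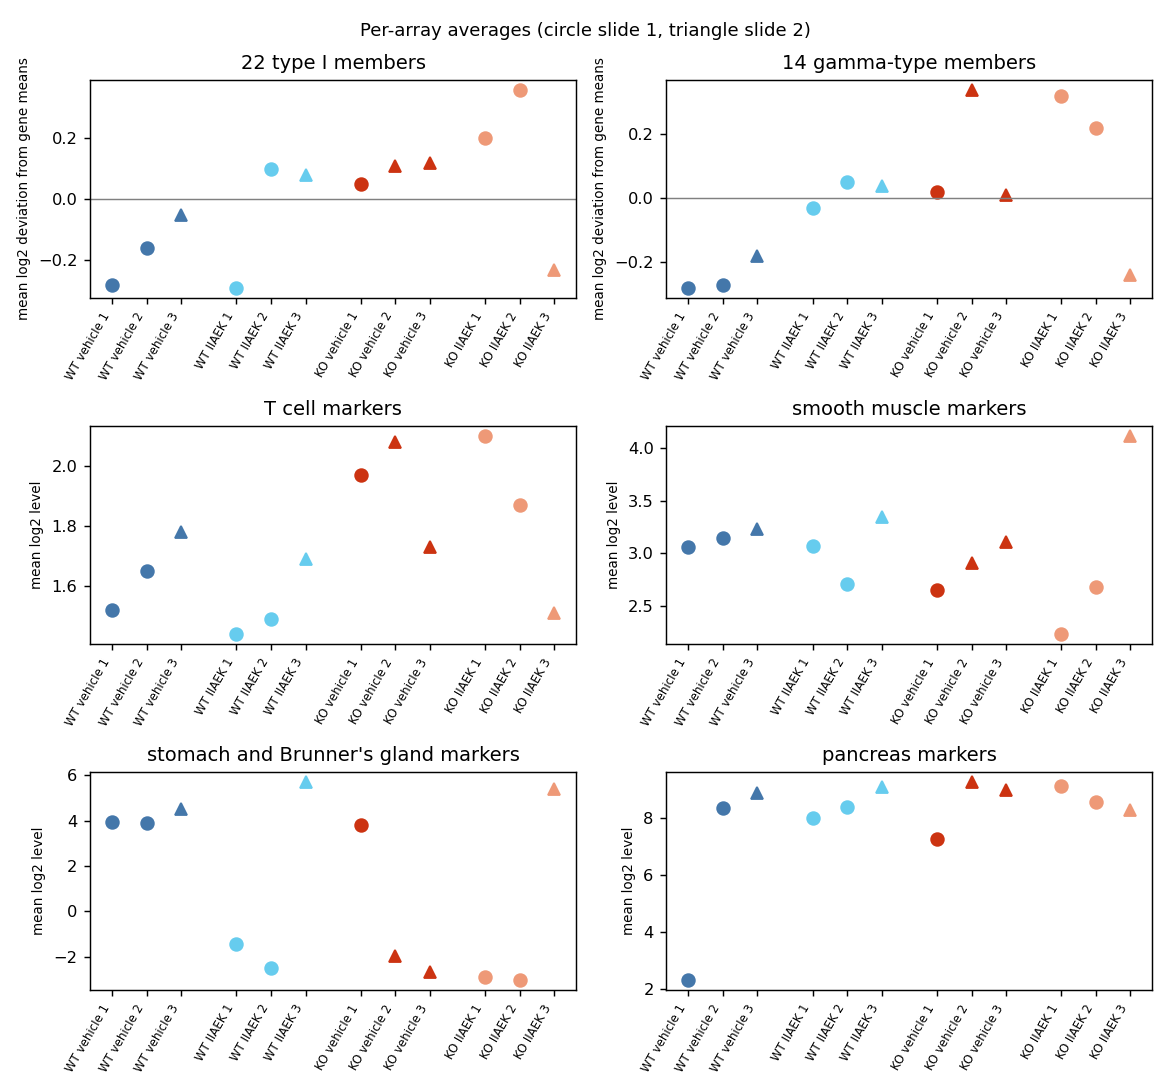
Mean deviation of the 22 type I and the 14 gamma-type genes from their own means (log2, upper row) and mean log2 level of the T cell, smooth muscle, stomach and Brunner's gland, and pancreas markers on each array, with circles for slide 1 and triangles for slide 2. Both classes are low on knockout IIAEK array 3, at -0.23 and -0.24, where the smooth muscle markers are highest, at 4.12.

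The vehicle groups compare the genotypes in the absence of the peptide. No gene of the 36 passed an adjusted p of 0.05 in limma with Benjamini-Hochberg adjustment over all features, where 0.00766% of all features did. With an unadjusted p under 0.05 were 4 genes with higher values in the knockout (2.15% of all features) and 0 with lower ones (1.71%). These were Cxcl9, Ifit2, Gbp6 and Ifi44. The median difference was 0.24 over the type I genes, with 20 of 22 above 0, and 0.32 over the gamma-type genes, with 14 of 14 above 0. Over all features the median was 0.03 and 54.6% were above 0. The 3 knockout values all exceeded the 3 wild-type values for 11 of the 36 genes and lay below them for 0, whereas among all features this held for 8.50% and 5.87%. Of these 11, 6 were type I genes (Isg15, Ifit2, Ifi44, Ifih1, Dhx58 and Zbp1) and 5 gamma-type (Irf1, Gbp3, Gbp6, Iigp1 and Cxcl9). Leaving out a single array of these groups gave 12 to 23 genes, the most without wild-type vehicle array 3. Smaller groups separate more easily, and the share of all features was not counted for them.

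Among the secreted products, Cxcl9, a chemokine that draws T cells and is induced chiefly by interferon gamma, had the largest difference. Its level was -0.67, -0.69 and -0.96 on the wild-type vehicle arrays, 0.04, 0.21 and -0.08 on the wild-type IIAEK arrays, 0.16, 0.02 and -0.10 on the knockout vehicle arrays, and 0.56, 0.11 and -0.75 on the knockout IIAEK arrays. The wild-type vehicle arrays lay below those of the wild-type IIAEK and knockout vehicle groups without overlap, and only knockout IIAEK array 3 came near them. The difference under vehicle was 0.80 (SE 0.27, 95% interval 0.21 to 1.40, unadjusted p = 0.0123 and adjusted p = 0.993 in limma), and it was 0.84 within slide 1 and 0.92 within slide 2. Cxcl10, which binds the same receptor, stood at -0.83, -0.54 and -0.17 in the wild-type vehicle group and at -0.27, 0.34 and -0.65 in the knockout vehicle group. These overlapped, and its values under IIAEK, -0.35, -0.93 and -0.40 in wild type and -0.75, -0.18 and -0.62 in the knockout, lay in the same range.

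**Figure D3:**
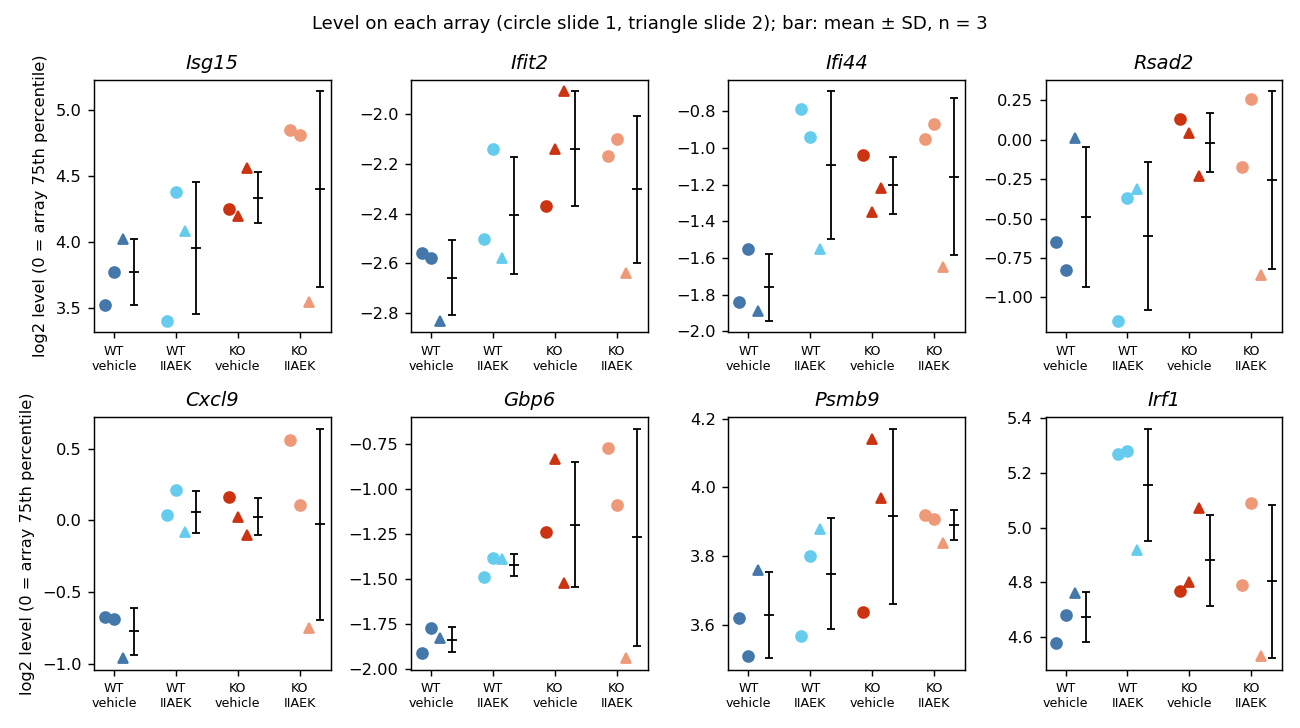
Log2 level (0 is the array's 75th percentile) of 4 type I genes (upper row) and 4 gamma-type genes (lower row) on each array, by group, with circles for slide 1 and triangles for slide 2 and bars for the mean ± SD of 3 arrays. For Cxcl9 the wild-type vehicle arrays, at -0.96 to -0.67, lie below the knockout vehicle arrays, at -0.10 to 0.16.

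The GTPases that act on pathogen vacuoles were next. Gbp6, a guanylate-binding protein, stood at -1.91, -1.77 and -1.83 on the wild-type vehicle arrays, -1.49, -1.38 and -1.39 on the wild-type IIAEK arrays, -1.24, -0.83 and -1.52 on the knockout vehicle arrays, and -0.77, -1.09 and -1.94 on the knockout IIAEK arrays. The wild-type vehicle values lay below those of the wild-type IIAEK and knockout vehicle groups without overlap, and knockout IIAEK array 3 held the lowest value of all. Its difference under vehicle was 0.64 (SE 0.27, 95% interval 0.04 to 1.23, unadjusted p = 0.0389 and adjusted p = 0.993 in limma), with 0.60 and 0.65 within slides 1 and 2. Iigp1, an immunity-related GTPase, differed by 0.52 (SE 0.31) with 0.59 and 0.50 within the slides. The differences of the remaining GTPases were 0.31 for Gbp2, 0.32 for Gbp3, 0.37 for Gbp7, 0.36 for Igtp and 0.18 for Irgm1. The 2 other probes of Irgm1 gave 0.35 and 0.38. Genes of these families have close paralogs, and whether a probe also binds a paralog was not tested.

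The immunoproteasome subunits Psmb8 and Psmb9, which cut proteins into peptides for MHC class I, overlapped between the groups. Psmb8 stood at 3.26, 3.10 and 3.62 on the wild-type vehicle arrays, 3.24, 3.52 and 3.78 on the wild-type IIAEK arrays, 3.33, 4.29 and 3.80 on the knockout vehicle arrays, and 3.73, 3.47 and 3.70 on the knockout IIAEK arrays. Psmb9 stood at 3.62, 3.51 and 3.76, at 3.57, 3.80 and 3.88, at 3.64, 4.14 and 3.97, and at 3.92, 3.91 and 3.84, in that order. Knockout vehicle array 2 was the highest array for both subunits, and knockout vehicle array 1 lay within the wild-type range. The differences under vehicle were 0.48 (SE 0.24) for Psmb8 and 0.29 (SE 0.15) for Psmb9, with 0.15 and 0.43 within slides 1 and 2 for Psmb8 and 0.07 and 0.30 for Psmb9. Without knockout vehicle array 2 the differences were 0.24 and 0.17. Tap1, the transporter that carries those peptides into the endoplasmic reticulum, differed by 0.21.

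Of the type I effectors, Ifit2, which binds viral RNA and blocks its translation, stood at -2.56, -2.58 and -2.83 on the wild-type vehicle arrays, -2.50, -2.14 and -2.58 on the wild-type IIAEK arrays, -2.37, -2.14 and -1.91 on the knockout vehicle arrays, and -2.17, -2.10 and -2.64 on the knockout IIAEK arrays. All knockout vehicle values were above all wild-type vehicle values, and knockout IIAEK array 3 again lay in the wild-type range. The difference under vehicle was 0.51 (SE 0.21, 95% interval 0.05 to 0.98, unadjusted p = 0.0327 and adjusted p = 0.993 in limma), and it was 0.20 within slide 1 and 0.80 within slide 2. Ifi44, a cytoplasmic protein used widely as an interferon marker, stood at -1.84, -1.55 and -1.89, then at -0.79, -0.94 and -1.55, then at -1.04, -1.35 and -1.22, and at -0.95, -0.87 and -1.65, in the same order of groups. Its wild-type vehicle arrays were lower than the knockout vehicle arrays by 0.55 (SE 0.25, unadjusted p = 0.0489 and adjusted p = 0.993 in limma), with 0.65 and 0.60 within the slides.

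Isg15, a ubiquitin-like modifier, stood at 3.52, 3.77 and 4.02 on the wild-type vehicle arrays, 3.40, 4.38 and 4.08 on the wild-type IIAEK arrays, 4.25, 4.20 and 4.56 on the knockout vehicle arrays, and 4.85, 4.81 and 3.54 on the knockout IIAEK arrays. The vehicle groups did not overlap, but the IIAEK groups did, with a spread of over 1 log2 unit between knockout arrays 1 and 3. Its difference under vehicle was 0.57 (SE 0.34), and 0.61 and 0.36 within the slides. Rsad2 (viperin), an enzyme that makes a chain-terminating nucleotide, stood at -0.65, -0.83 and 0.01, at -1.15, -0.37 and -0.31, at 0.13, 0.04 and -0.23, and at -0.17, 0.26 and -0.86. The groups overlapped, and its difference under vehicle, 0.47 (SE 0.32), was 0.88 within slide 1 and -0.11 within slide 2. The other probe of Rsad2 gave 0.23 under vehicle. Zbp1 differed by 0.73 (SE 0.43), with 0.94 for its other probe.

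Of the transcription factors, Irf7, which amplifies type I interferon production, stood at 4.58, 4.81 and 5.20 on the wild-type vehicle arrays, 4.92, 4.99 and 5.10 on the wild-type IIAEK arrays, 4.88, 5.03 and 4.97 on the knockout vehicle arrays, and 5.08, 5.21 and 4.93 on the knockout IIAEK arrays. Stat2 stood at 2.04, 2.01 and 1.93, at 2.08, 2.05 and 2.09, at 1.79, 2.01 and 2.0, and at 1.83, 2.20 and 2.05. Both overlapped between the vehicle groups, and their differences under vehicle were 0.10 and -0.06. For Irf9, the partner of Stat2 in the type I pathway, the difference was 0.02, and for Irf8, a factor of myeloid cells, 0.17. The RNA sensors Ifih1, Dhx58 and Ddx58 differed by 0.25, 0.23 and 0.16, but the other 3 probes of Ddx58 gave -0.28, -0.17 and -0.16, so that its direction rests on the probe chosen. The same held for Parp14, with 0.07 for the probe used and -0.27 for the other. It also held for the small differences of Irf7 and Irf9, whose other probes gave -0.04 and -0.05.

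The T cell markers also lay higher in the knockout vehicle group. Their mean level was 1.52, 1.65 and 1.78 on the wild-type vehicle arrays and 1.97, 2.08 and 1.73 on the knockout vehicle arrays, and 11 of 12 markers had a difference above 0 with a median of 0.32. The median was 0.35 over the 6 NK and innate lymphoid markers tested, with 6 above 0, and 0.28 over the 12 macrophage and dendritic cell markers tested, with 11 above 0. The B cell markers had a median of -1.99 and those of stomach and Brunner's gland -4.03, with 0 of 6 above 0 in each list. The B cell markers averaged 1.46, 0.69 and -2.35 on the wild-type vehicle arrays and -2.19, -1.88 and -2.17 on the knockout vehicle arrays. Their median thus rests on wild-type vehicle arrays 1 and 2, and array 3 lay below the knockout vehicle arrays. The part of these cells and tissues in the interferon gene values was not tested, and in RNA of a whole tissue fewer cells of a type and less RNA per cell cannot be told apart. With the mean of the stomach and Brunner's gland markers as a covariate, a fit chosen after the data were seen, the medians under vehicle were 0.15 for the type I genes (16 of 22 above 0) and 0.22 for the gamma-type genes (13 of 14). Without wild-type vehicle array 1 and knockout IIAEK array 3, a choice also made after the data were seen, they were 0.19 and 0.29.

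Within slides, the knockout vehicle difference kept its sign in both classes. Its median was 0.23 (20 of 22 above 0) for the type I genes and 0.27 (12 of 14) for the gamma-type genes on slide 1, and 0.12 (15 of 22) and 0.35 (14 of 14) on slide 2. Slide 1 held 1 knockout vehicle array and slide 2 held 1 wild-type vehicle array, so each of these rests on a lone array that is assumed to vary like the others.

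Under IIAEK the knockout and wild-type groups overlapped for every one of the 36 genes. Among all features, 1.65% were higher and 2.19% lower without overlap. At such shares a list of 36 genes would hold few or none, so the overlap does not set these genes apart. No gene passed the adjusted threshold in limma (0.00766% of all features did), and the unadjusted p was under 0.05 for 1 gene higher in the knockout (0.414%) and 0 lower (0.900%). That gene was Oas1a, an enzyme that makes oligoadenylates and so activates RNase L. It stood at 3.76, 3.99 and 4.13 on the wild-type vehicle arrays, 3.58, 3.96 and 4.24 on the wild-type IIAEK arrays, 4.22, 3.91 and 4.14 on the knockout vehicle arrays, and 4.37, 4.44 and 4.16 on the knockout IIAEK arrays. Its difference under IIAEK was 0.40 (SE 0.18, unadjusted p = 0.0482 and adjusted p = 1.0 in limma), but it was 0.64 within slide 1 and -0.07 within slide 2. Irf1, a factor that is itself induced by interferon gamma, had the second smallest p, with a difference of -0.35 (SE 0.17).

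The median under IIAEK was 0.16 over the type I genes (15 of 22 above 0) and 0.12 over the gamma-type genes (11 of 14), against -0.01 over all features (47.5% above 0). The slides differed in sign. On slide 1 the medians were 0.28 (18 of 22) and 0.23 (13 of 14). On slide 2, which holds 1 array of each IIAEK group, knockout array 3 among them, they were -0.25 (2 of 22) and -0.36 (2 of 14). Without that array the medians were 0.23 (19 of 22) and 0.22 (13 of 14), without knockout IIAEK array 2 the type I median was 0.01, and without array 1 the gamma-type median was 0.00. Its T cell markers averaged 1.51, against 2.10 and 1.87 on knockout IIAEK arrays 1 and 2, and its part in these values beyond leaving it out was not tested.

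Averaged over treatments, no gene passed in limma (0.0192% of all features did) and 0 had an unadjusted p under 0.05 in either direction (1.37% and 1.67% of all features). For 0 of the 36 genes did the 6 knockout arrays all lie above the 6 wild-type arrays (0.0843% of all features). The medians were 0.22 for each class, with 18 of 22 and 13 of 14 genes above 0, against 0.01 and 52.3% over all features. The values with the smallest p were 0.27 for Oas1a (SE 0.13), 0.51 for Isg15 (SE 0.24) and 0.31 for Ifit2 (SE 0.15) among the type I genes, and 0.40 for Gbp6 (SE 0.19), 0.21 for Psmb9 (SE 0.11) and 0.36 for Cxcl9 (SE 0.19) among the gamma-type genes. On slide 1 the medians were 0.28 and 0.29, and on slide 2 they were -0.09 (8 of 22 above 0) and 0.08 (8 of 14). Within slide 2 the difference had the opposite sign for 17 of the 36 genes, Oas1a and Isg15 at -0.09 each among them.

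**Figure D4:**
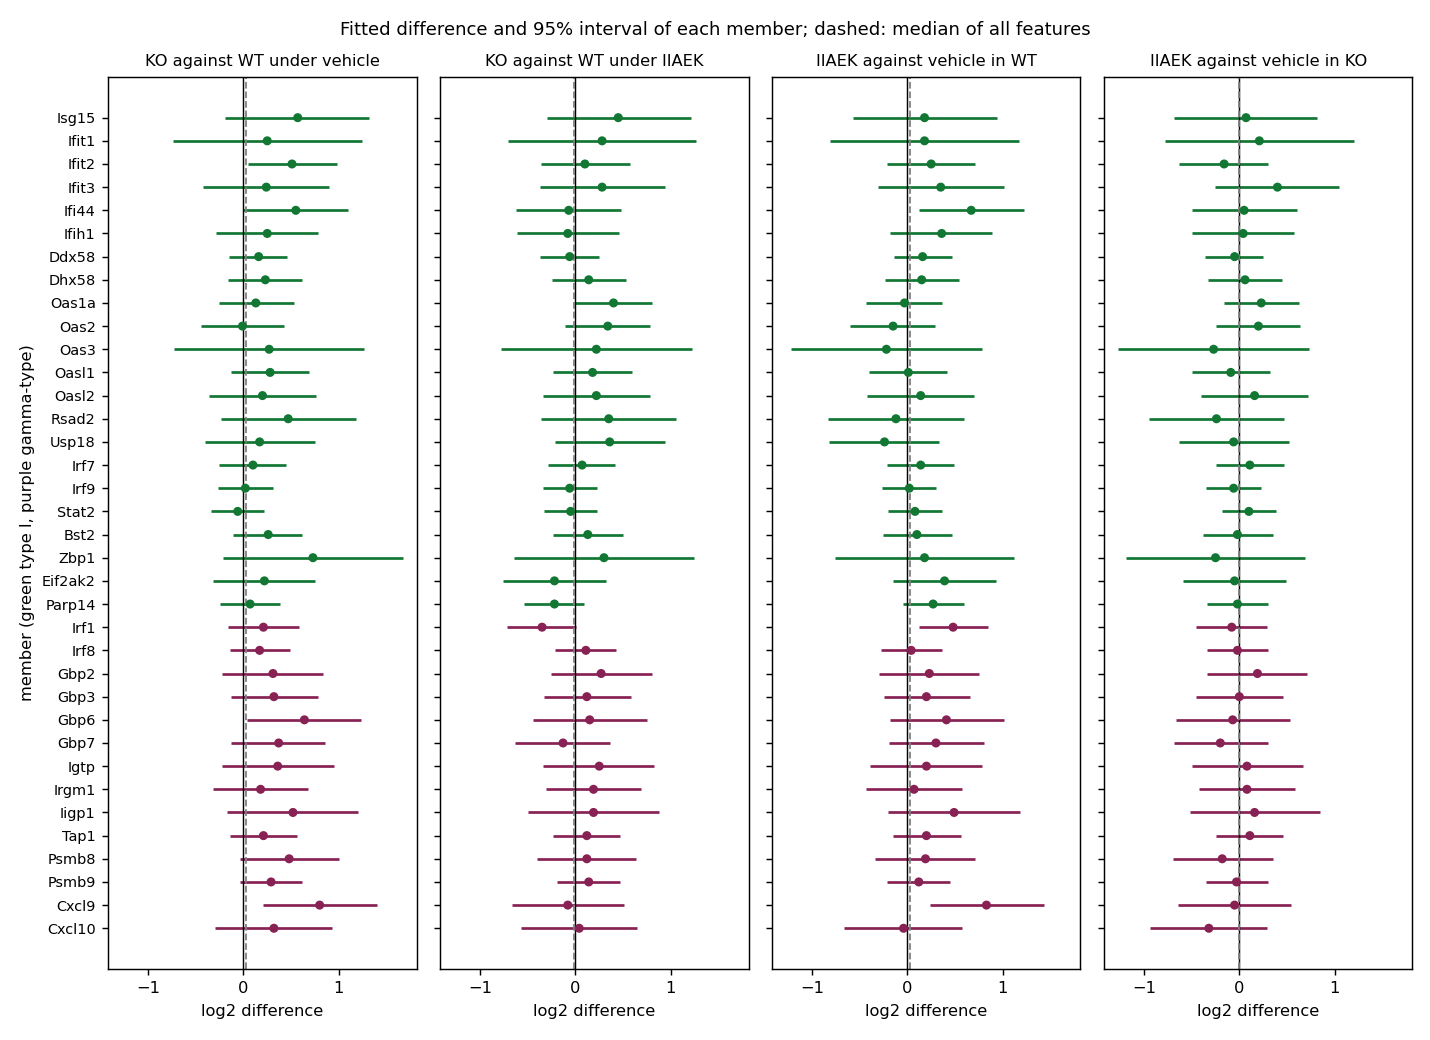
Fitted log2 difference and 95% interval of each of the 36 genes in 4 comparisons (green type I, purple gamma-type), with a solid line at 0 and a dashed line at the median of all features. Most points lie right of 0 for the knockout under vehicle (34 of 36) and for IIAEK in wild type (30 of 36), most intervals cross 0, and the points lie around 0 for IIAEK in the knockout.

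The comparison of IIAEK with vehicle in wild type asks what the peptide does where Akp3 is present. It shares the 3 wild-type vehicle arrays with the knockout comparison under vehicle. No gene passed the adjusted threshold in limma (0.00% of all features did), while 3 genes higher under IIAEK had an unadjusted p under 0.05 (1.70%) and 0 lower (1.44%), namely Cxcl9, Irf1 and Ifi44. The groups did not overlap for 9 of the 36 genes, all higher under IIAEK, against 5.58% of all features higher and 3.69% lower. They were Ifi44, Ifih1, Stat2, Eif2ak2 and Parp14 among the type I genes and Irf1, Gbp6, Iigp1 and Cxcl9 among the gamma-type genes. Leaving out a single array of these groups gave 10 to 15 genes, the most without wild-type IIAEK array 1. Here too smaller groups separate more easily, and the share of all features was not counted for them. The median was 0.15 over the type I genes (17 of 22 above 0) and 0.20 over the gamma-type genes (13 of 14), against 0.03 over all features (56.3%).

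Cxcl9, whose values are given above, differed by 0.83 (SE 0.27, 95% interval 0.24 to 1.43, unadjusted p = 0.0101 and adjusted p = 0.999 in limma), with 0.81 within slide 1 and 0.88 within slide 2. Irf1 stood at 4.58, 4.68 and 4.76 on the wild-type vehicle arrays, 5.27, 5.28 and 4.92 on the wild-type IIAEK arrays, 4.77, 4.80 and 5.07 on the knockout vehicle arrays, and 4.79, 5.09 and 4.53 on the knockout IIAEK arrays. Wild-type IIAEK arrays 1 and 2 were the highest of the 12, and the wild-type vehicle arrays lay below all arrays of the wild-type IIAEK and knockout vehicle groups. The difference was 0.48 (SE 0.17, 95% interval 0.12 to 0.85, unadjusted p = 0.0146 and adjusted p = 0.999 in limma), with 0.65 within slide 1 and 0.16 within slide 2, and 0.35 for its other probe.

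Ifi44 differed by 0.67 (SE 0.25, unadjusted p = 0.0217 and adjusted p = 0.999 in limma), with 0.83 and 0.34 within the slides, and its lowest IIAEK array and highest vehicle array are both -1.55 after rounding. Parp14, an ADP-ribosyltransferase, stood at 2.65, 2.78 and 2.58 on the wild-type vehicle arrays, 3.05, 2.99 and 2.78 on the wild-type IIAEK arrays, 2.60, 2.85 and 2.76 on the knockout vehicle arrays, and 2.75, 2.93 and 2.48 on the knockout IIAEK arrays. The wild-type groups met at 2.78, and the difference was 0.27 (SE 0.15). Eif2ak2, the kinase PKR that halts translation on double-stranded RNA, differed by 0.39 (SE 0.24), Iigp1 by 0.49 (SE 0.31) and Gbp6 by 0.41 (SE 0.27).

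Ifit3, which stabilises Ifit1 on RNA, stood at 0.85, 0.87 and 0.99 on the wild-type vehicle arrays, 0.92, 1.82 and 1.02 on the wild-type IIAEK arrays, 1.20, 0.96 and 1.26 on the knockout vehicle arrays, and 1.88, 1.92 and 0.82 on the knockout IIAEK arrays. The 3 arrays at 1.82 or more were all IIAEK arrays on slide 1, and the remaining IIAEK arrays lay with the vehicle arrays. For the oligoadenylate synthetases and their relatives the IIAEK differences in wild type were -0.03 for Oas1a, -0.15 for Oas2, -0.22 for Oas3, 0.01 for Oasl1 and 0.14 for Oasl2. Usp18, the protease that removes Isg15, had -0.24 and Rsad2 -0.12.

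The T cell markers had a median difference of -0.04 (5 of 12 above 0) under IIAEK in wild type, the macrophage and dendritic cell markers 0.01 (6 of 12) and the NK and innate lymphoid markers 0.09 (6 of 6). The B cell markers had a median of -2.02 and those of stomach and Brunner's gland -3.50, with 0 of 6 above 0 in each list, and the pancreatic markers had 2.0 (12 of 12). The B cell markers averaged 1.46, 0.69 and -2.35 on the wild-type vehicle arrays and -1.04, -2.32 and -2.42 on the wild-type IIAEK arrays. The part of all these marker lists in the interferon gene values was not tested beyond the fits that follow. Within slides the class medians were 0.06 and 0.21 on slide 1 and 0.12 and 0.17 on slide 2, type I first, with 1 array per group on slide 2. Without wild-type vehicle array 1 and knockout IIAEK array 3 they were 0.07 and 0.17, and with the stomach and Brunner's gland covariate 0.07 and 0.15. Both of these fits were chosen after the data were seen.

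In the knockout, IIAEK and vehicle arrays overlapped for all 36 genes, where 1.98% of all features were higher and 2.70% lower without overlap. No gene passed in limma (0.00% of all features did), and 0 had an unadjusted p under 0.05 in either direction (0.816% and 1.10% of all features). The medians were 0.01 over the type I genes (11 of 22 above 0) and -0.02 over the gamma-type genes (5 of 14), and 49.2% of all features were above 0. They were 0.23 for each class on slide 1 and -0.31 and -0.43 on slide 2. Without knockout IIAEK array 3 they were 0.18 (18 of 22) and 0.15 (11 of 14), whereas the type I median was -0.10 without array 2 and the gamma-type median -0.15 without array 1. Within slide 2 alone, 1 gene passed an adjusted p of 0.05 in limma, Zbp1, lower under IIAEK by 1.33 log2 units (log2 difference -1.33, adjusted p = 0.0466), where 0.977% of all features were called. That call rests on 1 IIAEK array, array 3 with the high smooth muscle markers, whose spread is assumed from the other groups and the other features. Zbp1 stood at 2.25 and 1.94 on the vehicle arrays of slide 2 and at 0.77 on array 3. On slide 1 it stood at 1.37 under vehicle and at 2.48 and 1.56 under IIAEK. Zbp1 was singled out after its values were seen.

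Averaged over genotypes, no gene passed in limma for IIAEK (0.00% of all features did) and 0 had an unadjusted p under 0.05 (1.20% higher and 1.74% lower among all features). The groups overlapped for all 36 genes (0.0689% of all features were higher without overlap). The medians were 0.10 over the type I genes (16 of 22 above 0) and 0.12 over the gamma-type genes (13 of 14), against 0.02 over all features (55.2% above 0). The values with the smallest p were 0.36 for Ifi44 (SE 0.18) and 0.37 for Ifit3 (SE 0.21), and 0.39 for Cxcl9 (SE 0.19) and 0.20 for Irf1 (SE 0.12).

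The difference of the IIAEK effect between genotypes was tested as an interaction, knockout minus wild type. It includes the same 3 wild-type vehicle arrays as the knockout comparison under vehicle and the IIAEK comparison in wild type. Its values are therefore not independent of those comparisons. No gene passed in limma (0.00% of all features did), and those with an unadjusted p under 0.05 were 0 genes above 0 (0.590%) and 2 genes below 0 (0.935%), Irf1 at -0.56 (SE 0.24, unadjusted p = 0.0373) and Cxcl9 at -0.89 (SE 0.38, unadjusted p = 0.0399), each with an adjusted p of 1.0 in limma. Irf1 was -0.48 within slide 1 and -0.57 within slide 2. Cxcl9 was -0.63 and -1.59, and -0.52 without knockout IIAEK array 3. Ifi44 followed at -0.62 (SE 0.35) and Parp14 at -0.29 (SE 0.21). The other probe of Parp14 gave an IIAEK difference of 0.18 in wild type and 0.28 in the knockout, so the sign for Parp14 rests on the probe chosen. The medians were -0.09 over the type I genes (7 of 22 above 0) and -0.24 over the gamma-type genes (1 of 14), against -0.04 over all features (44.1%). Without knockout IIAEK array 3 they were 0.02 and -0.15, so the sign of the type I median rests on that array.

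The rest of the interferon pathway was listed by role. No gene of these lists passed in limma in the averaged comparison of knockout with wild type, where 0.0192% of all features did. The adjusted p in limma was 0.999 for each gene named here. Among all features, 52.3% were above 0 in that comparison. Of 13 interferon genes, 7 were tested, with a median of -0.19 and 2 above 0. These 7 were dim, with a mean level of -3.83 to -2.91 per array, against 1.16 to 1.81 for the 22 type I genes. Ifng, the gene of interferon gamma, had 0.49 (SE 0.26) and Ifna5, a type I interferon, -0.49 (SE 0.34). Ifnb1, Ifna2, Ifna4 and Ifne did not pass the filter, with at most 1 array well above background each. The 10 receptor and kinase genes had a median of 0.04 with 7 above 0, and Ifnlr1, the receptor chain of interferon lambda, had -0.10 (SE 0.11).

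The 12 genes listed under sensing upstream of interferon had a median of 0.04 with 7 above 0, and Tlr7, a receptor for single-stranded RNA, had 0.43 (SE 0.22). The 8 negative regulators had a median of 0.03 with 4 above 0, from Samhd1, an enzyme that hydrolyses deoxynucleotides, at -0.27 (SE 0.12) to Socs3, an inhibitor of cytokine receptors, at 0.44 (SE 0.22). Of 28 other type I targets tested, 22 were above 0 (52.3% of all features) with a median of 0.15. Among them 1, Ifi27l2a, had an unadjusted p under 0.05 in limma, at 0.47 (SE 0.20). Among all features, 1.37% were higher in the knockout at that threshold. Of 24 other gamma-type targets, 20 were above 0 with a median of 0.11, among them Gbp4 at 0.25 (SE 0.13) and Ido1, an enzyme that breaks down tryptophan, at 0.63 (SE 0.35).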

How the data were processed

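Agilent Feature Extraction 10.7.3.1 made the scanner files, per the file headers. Each spot has a deposited processed intensity that is background-subtracted and not scaled between arrays. An Agilent linear amplification kit was used for labelling, per the labels' protocols. The authors' deposited value table holds log2 values of unstated making, which equalled the scanner files' log2 processed intensity minus the array's 75th percentile, centred per probe (correlation at least 0.999996). Levels here are log2 processed intensity minus that percentile, which was 195.3 to 465.4 before log2.

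Control spots were left out, spots of one probe averaged, probes named through their accession in RefSeq's gene table (32978 of 56583 probes), and the brightest probe kept per gene. A probe was kept when at least 1 group had it called well above background in all 3 mice. The fit was limma 3.58.1 in R 4.3.3 (lmFit, eBayes with an intensity trend, 1 mean per group over 12 arrays), with p-values adjusted by Benjamini-Hochberg over 26107 features, and it was tested on simulated data. The number of arrays limits the precision, and p-values measure only the spread between these mice.

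The genes and lists were chosen with earlier results of these data known. Values on every array are given for the genes of each class with the smallest p in the averaged comparisons and the interaction, and for Isg15, Irf7, Stat2, Irf1, Cxcl9 and Cxcl10. Same-numbered arrays correlated above 0.1 in all 3 pairs for wild-type vehicle with wild-type IIAEK (0.36, 0.16 and 0.43) and with knockout vehicle (0.54, 0.12 and 0.18) but not for the other comparisons. All arrays numbered 1 lay on slide 1 and all numbered 3 on slide 2, so number and slide cannot be fully told apart. The fit has no replicate block, which was an alternative. For normexp, the median spot signal stood in for the mean signal, which was not used here. Alternatives were other scalings, background correction, filters, probe averaging, slides, the deposited table and leaving out arrays. One gene of the pathway lists is not reported here.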

Additional observations from a re-analysis of the deposited data

How the results depend on the processing

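No gene of the 36 passed in the full fit or in any alternative, except Zbp1 within slide 2 for IIAEK in the knockout (1 gene called, against 0.977% of all features). Other scalings, normexp, filters, probe averaging, no intensity trend, the deposited table, slide as a block and leaving out single arrays moved each class median by less than 0.19, the SD of an array's median between replicates. Several class medians were smaller than that SD, so this bound does not show that their sign held. With single arrays left out, the type I median ran from -0.10 to 0.18 for IIAEK in the knockout. For the interaction the type I median ran from -0.24 to 0.02. The replicate block gave medians of 0.24 and 0.32 under vehicle, 0.15 and 0.20 for IIAEK in wild type, and 0 genes called in every comparison, and changed no call. Within slide 2 the type I median was -0.09 for the averaged knockout comparison, the medians were -0.25 and -0.36 for the knockout under IIAEK and -0.31 and -0.43 for IIAEK in the knockout (0.23 and 0.23 within slide 1), the gamma-type median was -0.10 for IIAEK averaged over genotypes, and the interaction medians were -0.40 and -0.57 (gamma-type -0.04 within slide 1). Within slide 2 the sign turned for 17 of the 36 genes in the averaged knockout comparison, 7 under vehicle, 24 under IIAEK, 7 for IIAEK in wild type and 20 for IIAEK averaged over genotypes. They include, in the averaged knockout comparison Oas1a (-0.09), Isg15 (-0.09) and Rsad2 (-0.33), under vehicle Rsad2 (-0.11) and Oas1a (-0.10), under IIAEK Oas1a (-0.07) and Isg15 (-0.54), and for IIAEK averaged over genotypes Ifi44 (-0.01), Ifit3 (-0.13) and Irf1 (-0.12). Ifna5 was 0.01 with normexp and 0.01 within slide 1. With the stomach and Brunner's gland markers as a covariate, chosen after seeing the data, Ifih1 was -0.04 and Ifit3 -0.08 under vehicle. Leaving out single arrays gave 12 to 23 genes higher without overlap for the knockout under vehicle and 10 to 15 for IIAEK in wild type, since fewer arrays separate more easily. The cause of the other shifts was not tested. With 3 arrays per group, the median SE of a class member under vehicle was 0.23.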
